A study of Mus musculus with 6 samples.

Results

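The comparison described here set mouse cells made by direct reprogramming against native muscle, over all genes, and asked which muscle genes stayed off and which fibroblast genes stayed on. It used 4 of the 6 RNA-seq libraries of the series, chosen by their labels: 2 libraries of transdifferentiated cells (replicates 1 and 2) and 2 of muscle (replicates 1 and 2). The other 2 libraries are mouse embryonic fibroblasts (MEF), the fibroblast reference, and were used to say from which side each gene differed. Direct reprogramming, also called transdifferentiation, turns one differentiated cell type into another without a pluripotent stage. The factor or agent used for the conversion, the time after it and the strain, sex and age of the animals are not stated in the sources used here. Nor are the kind of muscle and whether it was tissue or cultured cells. The deposited library names begin STauMEF for MEF, SEndomuscle for muscle and SiMuscle for transdifferentiated cells. What these tags mean is not stated. Beyond these names, no group is described as carrying any allele or receiving any agent. Whether the 2 replicates of a group are separate cultures or animals is also not stated, so p-values measure the spread between these libraries, which may be technical.

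Skeletal muscle forms from progenitors that express Pax7 and Myf5. The myogenic factors Myod1 and Myog then withdraw these cells from the cell cycle, fuse them into multinucleated fibres and switch on the contractile proteins of the sarcomere. Fibroblasts instead make the collagens and proteoglycans of the extracellular matrix. They also keep a pattern of Hox genes, the homeobox regulators that record where along the body a cell arose. The muscle libraries held Hox genes too, as given below. Pax7 and Myf5 therefore mark the progenitor stage of muscle here, and Hoxb9 marks positional identity.

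The series concerns DNA methylation, a chemical mark placed on CpG dinucleotides. The bases upstream of 3 member genes with different outcomes are shown with their CpGs in capitals. Myf5 is a muscle gene that stayed off, and Casq1 a muscle gene that came on in part. Hoxb8 is a gene higher in MEF than in muscle that stayed on. Each sequence is the 250 bases before the RefSeq transcription start on GRCm38.p6, read 5′ to 3′ on the gene's own strand.
Myf5 (chr10:107486135-107486384, minus strand): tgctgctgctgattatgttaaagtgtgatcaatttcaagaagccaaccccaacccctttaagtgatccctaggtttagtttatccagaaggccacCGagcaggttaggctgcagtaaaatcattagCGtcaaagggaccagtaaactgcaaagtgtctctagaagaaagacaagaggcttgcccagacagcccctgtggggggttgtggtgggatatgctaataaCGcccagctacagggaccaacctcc
Casq1 (chr1:172219896-172220145, minus strand): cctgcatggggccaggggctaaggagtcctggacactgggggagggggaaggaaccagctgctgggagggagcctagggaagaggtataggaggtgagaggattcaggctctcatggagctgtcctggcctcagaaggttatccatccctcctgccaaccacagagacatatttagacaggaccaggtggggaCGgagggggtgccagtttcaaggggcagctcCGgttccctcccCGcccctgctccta
Hoxb8 (chr11:96281655-96281904, plus strand): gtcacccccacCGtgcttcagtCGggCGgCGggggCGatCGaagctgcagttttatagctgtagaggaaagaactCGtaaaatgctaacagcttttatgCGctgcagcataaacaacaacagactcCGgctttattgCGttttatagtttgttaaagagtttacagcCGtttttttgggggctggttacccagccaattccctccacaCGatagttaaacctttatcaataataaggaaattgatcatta
These stretches hold 3 CpGs for Myf5, 3 for Casq1 and 12 for Hoxb8. In windows that also take in the 50 bases after the start, the counts are 3, 4 and 13, and 17 for Pax7, beside a median of 7 over the 27025 promoters in the table and of 20 over the 11582 tested genes that have an entry in it. All 4 counts lie below the median of the tested genes. The E-box CAGCTG, a palindrome of the CANNTG sites that myogenic factors bind, occurs 1 time in the Casq1 window and in none of the Myf5, Hoxb8 and Pax7 windows. Of all 27025 promoters of that length, 16.1% hold it. Methylation was not measured in these libraries.

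Between transdifferentiated cells and muscle, 1319 of 17400 tested genes were called higher in transdifferentiated cells (7.58%) and 428 lower (2.46%) by edgeR's quasi-likelihood test at an adjusted p under 0.05. The median log2 fold change over all tested genes was 0.03. The shares of 7.58% and 2.46% are the background for every list count below. Replicates of the 2 groups did not overlap for 26.4% of tested genes in the higher direction and 22.5% in the lower. A lack of overlap alone is thus common and is given below as a description only. Of the higher genes 745 differed by over 8-fold, against 104 of the lower genes. The counts rested on both muscle libraries: without muscle replicate 1 they were 743 and 165, and without muscle replicate 2 they were 589 and 140. Without transdifferentiated replicate 1 the lower count was 228. In this bulk RNA, fewer cells of a type and less RNA per cell cannot be told apart.

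**Figure D1:**
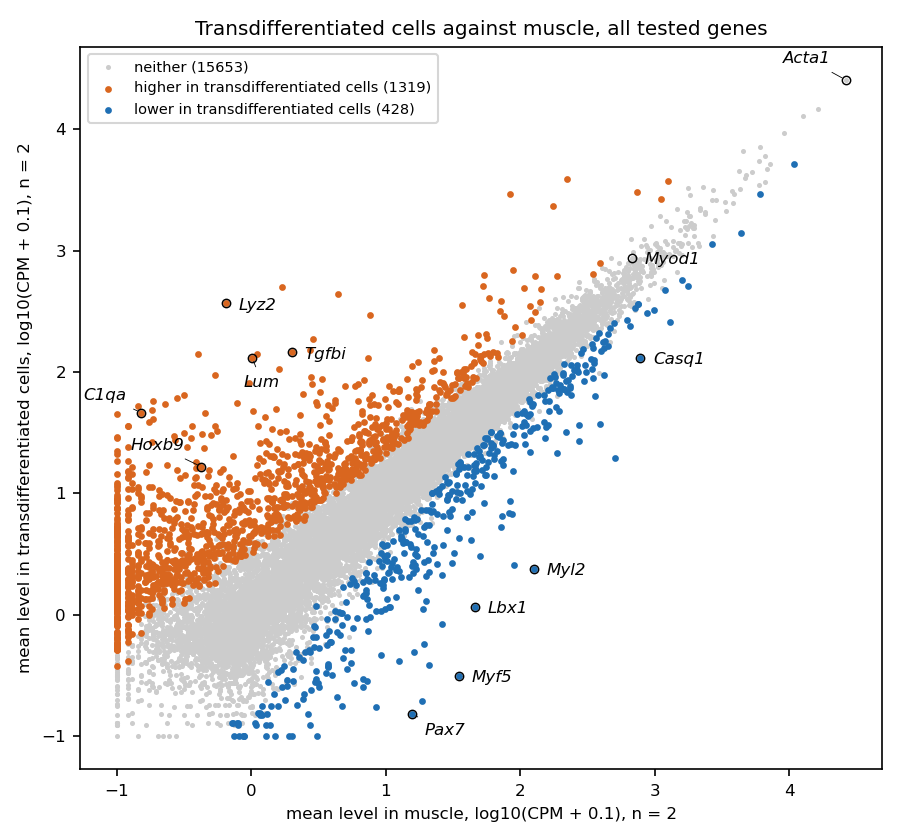
Each point is a tested gene, with its mean CPM in muscle on the x axis and in transdifferentiated cells on the y axis, both as log10(CPM + 0.1) over 2 libraries; orange genes were called higher in transdifferentiated cells and blue genes lower. Pax7, Myf5, Lbx1 and Myl2 lie far below the diagonal, while Lyz2, Lum, Tgfbi, C1qa and Hoxb9 lie far above it and Myod1 and Acta1 lie on it.

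The MEF libraries divide these differences by origin. Of 3009 genes higher in muscle than in MEF, 1821 (60.5%) were also called above MEF in transdifferentiated cells and not called against muscle. A further 158 (5.25%) came on in part, being called above MEF and still below muscle. The genes called below muscle and not above MEF, termed stayed off, numbered 144 (4.79%). Of 3189 genes higher in MEF than in muscle, 1353 (42.4%) were lower in transdifferentiated cells than in MEF and not called against muscle, and 243 (7.62%) went down in part. The genes called above muscle and not below MEF, termed stayed on, numbered 681 (21.4%). The 3 comparisons share libraries, so these counts describe the groups and are no separate evidence. Muscle replicate 1 left out gave 55 stayed-off and 393 stayed-on genes, muscle replicate 2 left out gave 40 and 334, and transdifferentiated replicate 1 left out gave 74 and 673.

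Stayed-off and stayed-on genes were defined by calls against muscle and MEF, so short distances follow in part from the definition. The 144 stayed-off genes covered a median of 7.13% of the log2 distance from MEF to muscle, and 12 of them were called below MEF. Of the 144, 101 covered under 25% of that distance, and the others had moved further without being called above MEF. The 681 stayed-on genes covered a median of -8.22%, that is, they lay slightly on the far side of the MEF level. Of them 130 were called above MEF, so they were not just kept at the fibroblast level. Protein-coding genes made up 101 of the 144 and 622 of the 681. The share over all tested genes is not given here and some symbols had no annotation match, so nothing about the classes is read from these counts. A further 324 of the higher genes and 101 of the lower genes were not called between muscle and MEF.

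**Figure D2:**
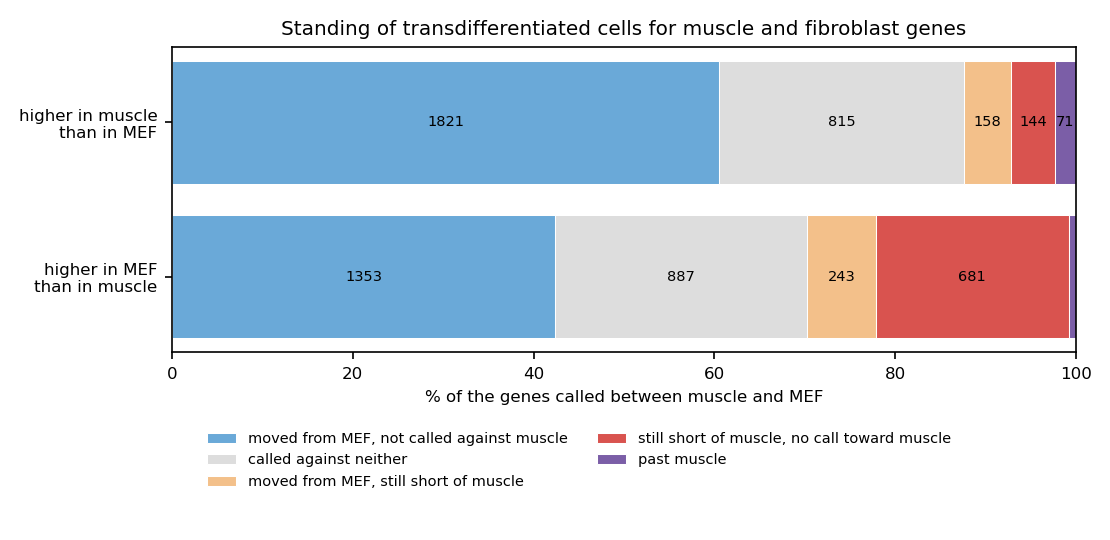
The upper bar holds the 3009 genes higher in muscle than in MEF and the lower bar the 3189 genes higher in MEF than in muscle; segments give the % and number by where transdifferentiated cells stood. The segment of genes still short of muscle with no call toward it is wider among fibroblast genes (681) than among muscle genes (144).

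Depth was 16817033 to 24584951 counts per library. Spearman correlations of log CPM between transdifferentiated and muscle libraries were 0.922 to 0.938, against 0.972 within transdifferentiated cells and 0.984 within muscle. The muscle label was checked against markers: Myod1, Myog, Acta1, Ckm and Ttn were high in both muscle libraries, and 10 of 10 tested genes of embryonic and neonatal muscle were higher in muscle than in MEF. Erythroid and lymphoid genes were near 0 in all 6 libraries (0.110 to 0.776 summed CPM over 12 genes). Macrophage and leukocyte genes, described below, were not. Sex-linked genes differed between the groups. Ddx3y, on the Y chromosome, was 0 in both muscle libraries, 30.3 and 14 CPM in transdifferentiated cells and 5.01 and 14 CPM in MEF. Xist, the RNA of the inactive X chromosome, was 398.8 and 615.5 CPM in muscle, 22.4 and 16.7 CPM in transdifferentiated cells and 116.9 and 156.8 CPM in MEF. By these calls Xist was among the stayed-off genes, and Ddx3y, Eif2s3y, Kdm5d and Uty were among the stayed-on genes. The sex make-up of the samples and the conversion cannot be told apart in this design.

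Progenitor genes were among those left off. Pax7, the paired box factor of muscle stem cells, was 16.6 and 14.5 CPM in muscle, 0.0561 and 0.0484 CPM in transdifferentiated cells (1 read in each library) and 0 in MEF. Muscle was thus 303 times higher, with an exact 95% interval of 83.5 to 2510 that covers counting error only, and the adjusted p was 0.000251 (edgeR). Myf5, the myogenic factor of committed progenitors, was 31.0 and 38.6 CPM in muscle and 0.281 and 0.145 CPM in transdifferentiated cells, near its 0.055 and 0.0485 CPM in MEF. Its log2 fold change was -7.33 ± 0.46 (SE, adjusted p = 0.000101, edgeR). Neither gene overlapped between the groups, and neither was called above MEF (adjusted p = 0.206 for Pax7 and 0.126 for Myf5, edgeR). Lbx1, a homeobox factor of migrating limb muscle precursors, was 49.8 and 42.6 CPM in muscle and 0.955 and 1.16 CPM in transdifferentiated cells. It lay 43.7-fold below muscle and yet above MEF, where it was 0.055 and 0 CPM.

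Among 37 satellite cell and progenitor genes, 34 were tested, and 8 were lower, 6 higher and 20 neither in transdifferentiated cells, with a median log2 fold change of -0.40. The lower members also included Met, the receptor for hepatocyte growth factor, at 11.6 and 21.6 CPM in muscle against 2.75 and 1.84 CPM in transdifferentiated cells. Met was as high in MEF (13.5 and 21.1 CPM), so transdifferentiated cells lay below both references. Spry1, a brake on growth factor signalling in quiescent satellite cells, was 205.3 and 213.4 CPM in muscle against 54.2 and 91.5 CPM, but its call was lost without either muscle library or transdifferentiated replicate 1 (adjusted p up to 0.089, edgeR). The higher members included Cd34, a surface sialomucin of progenitors and fibroblasts, at 2.39 and 2.13 CPM in muscle, 29.3 and 21.4 CPM in transdifferentiated cells and 32.8 and 30.8 CPM in MEF. Zic1, a zinc finger factor, was 0.852 and 1.16 CPM in muscle against 8.37 and 8.85 CPM, and Gas1, a growth arrest protein, 23.1 and 22.2 CPM against 197 and 108 CPM. Leaving out a library changed the lower count to between 5 (without either muscle library) and 13 (without either MEF library), and the higher count to 3 without muscle replicate 1.

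The core regulators were on. Myod1 was 723.5 and 621.5 CPM in muscle and 557.9 and 1187 CPM in transdifferentiated cells, against 1.43 and 0.534 CPM in MEF (log2 fold change from muscle 0.38 ± 0.41, adjusted p = 0.723, edgeR). The 2 transdifferentiated libraries lay on either side of the muscle values. Myog was 1101 and 991 CPM in muscle and 600.1 and 864 CPM in transdifferentiated cells (adjusted p = 0.316, edgeR), and Mef2c 973.4 and 1180 CPM against 957.2 and 843.8 CPM. Myf6, the latest of the 4 myogenic factors, was 41.9 and 50.0 CPM in muscle and 22.7 and 23.8 CPM in transdifferentiated cells, with no overlap and an adjusted p of 0.0663 (edgeR). Transcripts of the cells' own genes and any introduced copy were not told apart. Of 24 tested regulators, 22 were called in neither direction. Of the others 1 was lower and 1 higher. The higher one was Vgll2, a TEAD cofactor. Vgll2 was 70.5 and 26.5 CPM in muscle against 157 and 244 CPM, lost without muscle replicate 2 (adjusted p = 0.108, edgeR).

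Contractile genes were above MEF, and most were not called against muscle. Of 41 tested core sarcomere genes, 39 were higher than MEF both in muscle and in transdifferentiated cells, and 4 were lower, 1 higher and 36 neither against muscle. Acta1, skeletal alpha-actin, was 29150 and 23170 CPM in muscle and 18850 and 32240 CPM in the transdifferentiated libraries (log2 fold change -0.03 ± 0.34, adjusted p = 0.981, edgeR). Actc1, the cardiac alpha-actin of developing muscle, was 13680 and 11630 CPM against 11290 and 14320 CPM. Ttn, the giant spring protein titin, was 5942 and 7293 CPM against 3572 and 3722 CPM, without overlap and with an adjusted p of 0.0935 (edgeR). The lower 4 were Neb, Tcap, Nrap and Ankrd1, all at 87.8% or less of the log2 distance from MEF to muscle. Nebulin (Neb), which runs along the thin filament, was 3433 and 5332 CPM against 1441 and 1382 CPM. Nrap was named after its value was seen. Single libraries decided these calls: the count of lower members was 0 without muscle replicate 2, 1 without muscle replicate 1 and 2 without transdifferentiated replicate 1, and 7 without either MEF library. The higher gene was Xirp2, an actin-binding Xin repeat protein, at 123 and 164 CPM in muscle against 546 and 426 CPM (adjusted p = 0.0207, edgeR, and up to 0.177 without muscle replicate 1 or 2).

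Fibre-type genes differed from one another. Myl2, the slow and cardiac regulatory light chain, was 125.4 and 127.4 CPM in muscle and 2.64 and 1.94 CPM in transdifferentiated cells, 55.3-fold lower (log2 fold change -5.79 ± 0.42, adjusted p = 0.000177, edgeR). Its MEF values were 0 and 0.146 CPM. The slow myosin heavy chain Myh7 was 466 and 426 CPM in muscle against 191 and 224 CPM, a 2.15-fold difference whose adjusted p of 0.0172 (edgeR) rose to as much as 0.138 without either muscle library or transdifferentiated replicate 1. Of 15 tested slow fibre genes 5 were lower and none higher: Myl2, Myh7, Tnni1, Mb and Tpm3, the last chosen after its value was seen. Without muscle replicate 2 the count was 1, without muscle replicate 1 or transdifferentiated replicate 1 it was 2, and without MEF replicate 1 it was 8. Tpm3 was as high in MEF (289 and 279 CPM) as in muscle (242 and 324 CPM). Transdifferentiated cells, at 146 and 141 CPM, lay below both references for Tpm3. Of 24 tested adult fast fibre genes, 3 were lower, 2 higher and 19 neither (1 lower without muscle replicate 2, and 5 lower without either MEF library). Casq1, the calcium store protein calsequestrin of fast fibres, was 721 and 839 CPM in muscle and 136 and 127 CPM in transdifferentiated cells (5.93-fold lower, log2 fold change -2.57 ± 0.25, adjusted p = 0.000404, edgeR). MEF held 0.55 and 0.728 CPM, so it had covered 74.9% of the log2 distance to muscle. The fast heavy chain Myh4 was 147 and 139 CPM in muscle against 152 and 153 CPM (log2 fold change 0.09 ± 0.24, adjusted p = 0.912, edgeR). Its neighbour Myh2 was 175 and 105 CPM against 340 and 414 CPM, higher in transdifferentiated cells, and lost without muscle replicate 2 or transdifferentiated replicate 2 (adjusted p up to 0.236, edgeR). The heavy chains of this cluster are near-identical in parts, so reads may be split between them. Among the fetal forms, Myh3 was 6417 and 7293 CPM against 4524 and 4907 CPM and Myh8 988 and 1200 CPM against 973.1 and 985.4 CPM, neither called. The embryonic and neonatal list had 3 lower members of 10 (Tnni1, Chrna1 and Ankrd1), 1 without transdifferentiated replicate 1 and 0 without either muscle library.

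Of 35 tested genes that couple the nerve impulse to contraction, 33 were above MEF in transdifferentiated cells, and 7 were below muscle and none above, with a median log2 fold change of -0.64. Musk, the receptor kinase that assembles the neuromuscular synapse, was 180 and 258 CPM in muscle against 23.9 and 39.6 CPM, 6.91-fold lower (adjusted p = 0.00189, edgeR). Trim72, a membrane repair protein, was 381 and 310 CPM against 62.6 and 116 CPM, and Ryr3, a ryanodine receptor of immature muscle, 16.9 and 23.0 CPM against 4.60 and 3.10 CPM. None of these 3 genes overlapped between the groups, and their calls held with each of the 6 libraries left out in turn. The count of 7 was 3 without either muscle library or transdifferentiated replicate 1. The fetal acetylcholine receptor subunit Chrng was 651 and 628 CPM against 251 and 465 CPM, not called (adjusted p = 0.204, edgeR).

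**Figure D3:**
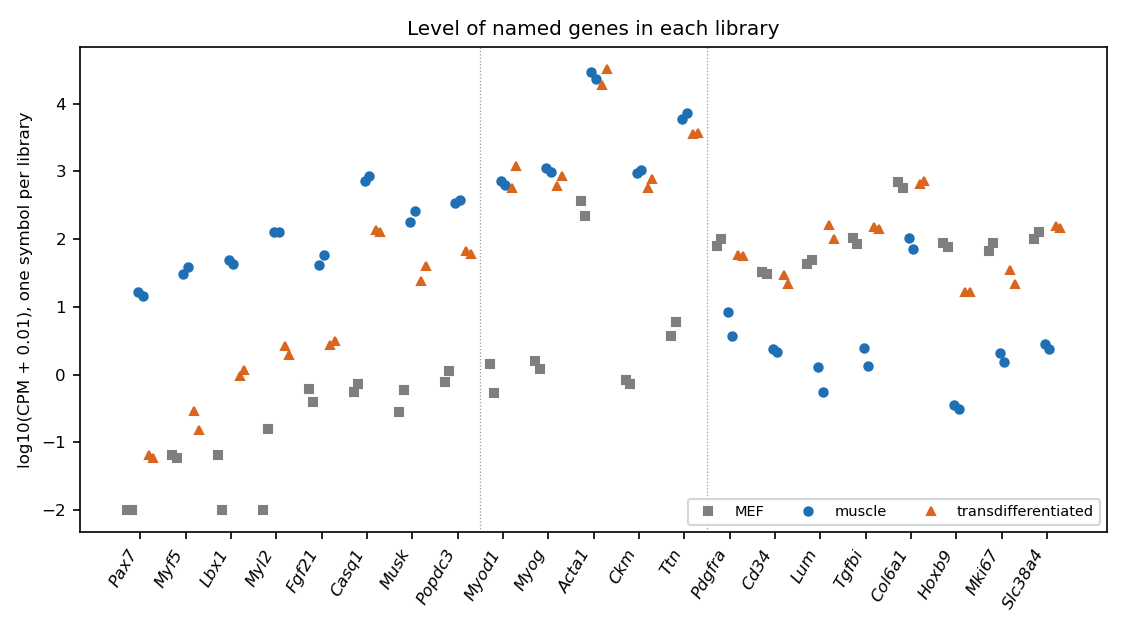
Symbols give the level of each gene in each library as log10(CPM + 0.01), with MEF as squares, muscle as circles and transdifferentiated cells as triangles; dotted lines separate muscle genes that were lower, muscle genes that were not called, and genes that were higher in transdifferentiated cells. Pax7 and Myf5 triangles lie far below the circles, Casq1 and Musk triangles lie between squares and circles, and Lum and Slc38a4 triangles lie above both.

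In energy metabolism, 7 of 30 tested genes were lower and 2 higher, with a median log2 fold change of -0.56. The share higher was near the 7.58% of all tested genes. Mb, the oxygen store myoglobin, was 1703 and 1797 CPM in muscle against 476.5 and 548.7 CPM (3.41-fold lower, adjusted p = 0.01, edgeR, and 0.0601 without muscle replicate 2). Cox6a2, the muscle form of a cytochrome oxidase subunit, was 128 and 109 CPM against 24.2 and 41.3 CPM, and its adjusted p was 0.00953 (edgeR), or 0.0632 without muscle replicate 1. Ckm, muscle creatine kinase, was 937.2 and 1039 CPM against 566.4 and 772.3 CPM and not called. The higher pair were Fbp2, a gluconeogenic enzyme of muscle, at 0.809 and 2.01 CPM against 13.9 and 10.1 CPM (adjusted p = 0.00924, edgeR, and 0.0554 without muscle replicate 1), and Lpl, lipoprotein lipase, a gene high in MEF. The count of 7 fell to 1 without muscle replicate 2 and to 4 without transdifferentiated replicate 2. The nuclear genes of the respiratory chain showed 1 call among 48 (Uqcrfs1, lower, adjusted p = 0.0498, edgeR, lost without any one of the 4 libraries compared, up to 0.363), with a median of -0.46. Of 13 genes of the mitochondrial genome, mt-Nd1 and mt-Nd4l were lower, both lost without either muscle library and mt-Nd1 also without either transdifferentiated library (adjusted p up to 0.154 and 0.0816, edgeR). Mitochondrial transcripts were 4.44% and 4.80% of counts in muscle and 4.18% and 3.45% in transdifferentiated cells. No gene of the stress and unfolded protein list was called, and of 21 immediate early genes Egr3 was lower (adjusted p = 0.0218, edgeR, and up to 0.13 without either muscle library or transdifferentiated replicate 1).

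Neither of the main fusogens was called. Mymk, the fusogen myomaker, was 2302 and 1866 CPM in muscle against 856.6 and 1459 CPM (adjusted p = 0.223, edgeR), and Mymx, its partner, was 239 and 217 CPM against 212 and 236 CPM (adjusted p = 0.981, edgeR). Cdh15, the cadherin of myoblasts, was 310 and 295 CPM against 187 and 386 CPM. In the fusion and surface list of 24 tested genes, 5 were lower and 2 higher. The share higher was near the 7.58% of all tested genes. Popdc3, a Popeye-domain membrane protein, was lower by 5.69-fold (345 and 371 CPM against 65.9 and 60.1 CPM, adjusted p = 0.000539, edgeR). The lower count was 2 without muscle replicate 2 and 3 without muscle replicate 1 or transdifferentiated replicate 1.

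Other genes with large deficits lie outside the contractile lists. Alox5, a leukotriene-forming lipoxygenase, was 87.7 and 90.1 CPM in muscle and 1.40 and 3.58 CPM in transdifferentiated cells, 35.7-fold lower, and was not called above its MEF level of 1.43 and 0.679 CPM. Iqsec3, an exchange factor for Arf proteins, was 29.5 and 22.2 CPM against 0.618 and 0.871 CPM, and 0 in MEF. Fgf21, a secreted metabolic hormone, was 41.4 and 58.9 CPM against 2.75 and 3.14 CPM (17-fold). Mamstr, a coactivator of Mef2 factors, was 82.4 and 61.7 CPM against 3.82 and 6.58 CPM (13.9-fold). Lynx1, a modulator of nicotinic receptors, was 93.9 and 78.9 CPM in muscle, 4.60 and 8.71 CPM in transdifferentiated cells and 17.1 and 12.2 CPM in MEF, so it lay below both. The adjusted p-values of these 5 genes were at most 0.000619 (edgeR) and their groups did not overlap. The largest changes were picked among called genes whose groups did not overlap, so neither trait is separate evidence. Of these 5 genes, Iqsec3, Fgf21 and Mamstr had come on in part. Among the stayed-off genes most abundant in muscle, Xist was 25.9-fold lower, while Slc6a6, Map1b and Tmem9 differed by less. Slc6a6, the taurine transporter, was 855 and 884 CPM in muscle against 223 and 390 CPM (adjusted p up to 0.11, edgeR, without either muscle library or transdifferentiated replicate 1). Map1b, a microtubule-associated protein, was 545 and 704 CPM against 244 and 291 CPM, at its MEF level of 252 and 251 CPM (up to 0.151 without muscle replicate 2 or transdifferentiated replicate 1). Tmem9, a lysosomal membrane protein, was 162 and 162 CPM in muscle, 43.9 and 51.7 CPM in transdifferentiated cells and 52.3 and 43.8 CPM in MEF, a call that held with each library left out in turn.

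On the fibroblast side, 19 of 40 tested identity genes were higher in transdifferentiated cells than in muscle and none was lower, with a median log2 fold change of 1.07. Lum, the collagen-binding proteoglycan lumican, was 1.28 and 0.547 CPM in muscle, 163 and 99.2 CPM in transdifferentiated cells and 43.5 and 49.4 CPM in MEF (log2 fold change from muscle 7.11 ± 0.48, adjusted p = 0.00014, edgeR). It was 144-fold above muscle and also called above MEF. Pdgfra, the growth factor receptor that marks interstitial fibroblasts, was 8.44 and 3.71 CPM in muscle, 58.3 and 56.2 CPM in transdifferentiated cells and 79.6 and 102 CPM in MEF. Dcn, decorin, was 56.9 and 59.9 CPM in muscle against 476 and 341 CPM, with 363 and 463 CPM in MEF. Neither Pdgfra nor Dcn was called against MEF. Col14a1, a collagen of fibril surfaces, was 2.73 and 1.95 CPM in muscle, 67.6 and 64.2 CPM in transdifferentiated cells and 12.2 and 11.3 CPM in MEF.

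Some other fibroblast markers fell from the MEF level without reaching muscle. Thy1 was 934 and 574 CPM in MEF, 79.3 and 125 CPM after conversion, that is, in transdifferentiated cells, and 25.4 and 18.7 CPM in muscle. Ly6a (Sca-1) was 462 and 481 CPM, 43.7 and 29.4 CPM and 11.1 and 8.27 CPM in the same order, and the mesenchymal factor Twist1 54.4 and 67.8 CPM, 25 and 26.2 CPM and 7.97 and 6.81 CPM. Without muscle replicate 2 the calls of Thy1, Ly6a and Twist1 against muscle were lost (adjusted p = 0.0586, 0.058 and 0.0587, edgeR). The homeobox gene Prrx1 was 57.4 and 75.5 CPM in muscle against 156 and 129 CPM, lost without either muscle library or transdifferentiated replicate 1 (up to 0.255). Of the 19 higher identity genes, 11 stayed on and 8 went down in part. A further 8 of the 40 tested, higher in MEF than in muscle, were below MEF and not called against muscle. The count was 12 without muscle replicate 1 and 9 without muscle replicate 2.

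Of 57 tested extracellular matrix genes, 14 were higher, 1 lower and 42 neither. Of the 42, 18 were lower than MEF both in muscle and in transdifferentiated cells. Col1a1 and Fn1 were not called. Col1a1 was 8220 and 3921 CPM in muscle against 5194 and 9009 CPM (adjusted p = 0.869, edgeR), and Fn1, fibronectin, 7211 and 4666 CPM against 4094 and 6878 CPM. Col6a1 and Col6a2, which encode 2 chains of collagen VI, a microfibril that surrounds cells, were among the higher genes. Col6a1 was 104 and 70.2 CPM in muscle, 655 and 730 CPM in transdifferentiated cells and 692 and 562 CPM in MEF (7.93-fold above muscle). Col6a2 was 65.3 and 41.5 CPM, 535 and 727 CPM and 541 and 372 CPM in the same order. Fbn2, a fetal fibrillin, was 9.84 and 4.80 CPM, 125 and 136 CPM and 200 and 165 CPM. Thbs4, a thrombospondin of tendon and muscle matrix, exceeded both references, at 1.70 and 0.304 CPM in muscle, 138 and 146 CPM in transdifferentiated cells and 18.6 and 12.6 CPM in MEF. Tnn, tenascin-N, a matrix protein outside the list and among the largest differences, was 0.0852 and 0 CPM in muscle (2 reads in all), 55.6 and 50.0 CPM in transdifferentiated cells and 1.05 and 1.36 CPM in MEF. The adjusted p-values of these 5 genes were at most 0.000462 (edgeR). The count of 14 was 9 without muscle replicate 2. The lower member was Loxl3, a matrix crosslinking enzyme, lost without muscle replicate 1 or transdifferentiated replicate 1 (adjusted p up to 0.239, edgeR).

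Of 22 contractile fibroblast genes 2 were higher, 1 lower and 19 neither, near the 7.58% and 2.46% of all tested genes. Acta2, smooth muscle actin, was 12210 and 8979 CPM in MEF, 2123 and 2905 CPM after conversion and 4015 and 2578 CPM in muscle. Myh11, smooth muscle myosin, was 0.128 and 0.122 CPM in muscle against 4.27 and 5.46 CPM, far under its 60.9 and 66.8 CPM in MEF. The other higher member was Myocd, at 1.52 and 1.55 CPM in transdifferentiated cells, and the lower one Ankrd1; the adjusted p-values of both exceeded 0.05 without either muscle library or transdifferentiated replicate 2 (edgeR, up to 0.179 and 0.216).

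In the TGF-beta and BMP list, 6 of 37 genes were higher and 4 lower, beside 7.58% and 2.46% of all tested genes. Tgfbi, a matrix protein induced by TGF-beta, was 2.47 and 1.34 CPM in muscle, 150 and 140 CPM in transdifferentiated cells and 105 and 85.3 CPM in MEF (76.2-fold above muscle, adjusted p = 0.000101, edgeR). Bmp4 was 0.767 and 0.608 CPM in muscle against 9.82 and 14.2 CPM, and the co-receptor Tgfbr3 4.34 and 3.83 CPM against 50.9 and 60.9 CPM. Inhba, an activin subunit, went the other way. It was 189 and 197 CPM in muscle, 50.1 and 45.1 CPM in transdifferentiated cells and 436 and 656 CPM in MEF, below both references. Without either muscle library the higher count was 3 and the lower count 2, and the lower count was also 2 without transdifferentiated replicate 2.

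Some secreted signals were above muscle. Igf1, an insulin-like growth factor, was 5.79 and 6.51 CPM in muscle, 96.5 and 62.0 CPM in transdifferentiated cells and 41.2 and 51.9 CPM in MEF (12.9-fold above muscle, adjusted p = 0.000347, edgeR). Fgf2 was lower than in muscle and MEF, at 15.3 and 12.5 CPM against 65.1 and 61.4 CPM and 62.4 and 82.1 CPM. The growth factor list had 8 higher and 5 lower of 34 (3 higher without muscle replicate 2, 5 higher and 3 lower without muscle replicate 1, and 9 lower without either MEF library). The chemokine Cxcl12 was 2.64 and 2.80 CPM in muscle, 71.5 and 87.8 CPM in transdifferentiated cells and 650 and 426 CPM in MEF. Of 17 tested inflammatory secreted factors 8 were higher and 3 lower, and without muscle replicate 2 the higher count was 5, while without muscle replicate 1 or transdifferentiated replicate 1 the lower count was 1. In the Wnt list 11 of 34 were higher and 4 lower. Sfrp1, a secreted Wnt antagonist, was 1.11 and 0.912 CPM in muscle against 42.7 and 29.1 CPM, Lgr5, a receptor for R-spondins, 0.895 and 1.22 CPM against 15.2 and 13.4 CPM, and the related receptor Lgr6 lower, at 15.6 and 13.7 CPM against 2.19 and 1.74 CPM. Without muscle replicate 1 the Wnt counts were 7 and 2, without muscle replicate 2 they were 5 and 2, and without transdifferentiated replicate 1 the lower count was 2. Notch genes showed 2 higher (Hey1 and Dlk1) and 1 lower (the ligand Jag2) of 18, of which the target Hey1 and Jag2 lost their calls without either muscle library or transdifferentiated replicate 1 (adjusted p up to 0.173 and 0.144, edgeR).

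Cell division genes were divided between those above the muscle level and those not called against it. Of 52 tested cell cycle genes 44 were lower in muscle than in the fibroblasts, and 26 were higher in transdifferentiated cells than in muscle, with 2 lower and a median log2 fold change of 1.57. Mki67, a protein of dividing nuclei, was 65.7 and 87.0 CPM in MEF, 34.5 and 21.7 CPM after conversion and 2.09 and 1.52 CPM in muscle (15.6-fold above muscle, adjusted p = 0.000404, edgeR). Cenpa, a centromeric histone, was 2.30 and 1.82 CPM in muscle against 15.5 and 10.2 CPM. Of the 26 higher genes, 21 went down in part and 5 stayed on, and a further 13 were below MEF and not called against muscle. Without muscle replicate 1 the count was 16 and without muscle replicate 2 it was 7. The lower pair were Cdk2 and E2f2, both lost without either muscle library or transdifferentiated replicate 1 (adjusted p up to 0.168 and 0.119, edgeR). On the exit side, Cdkn1a (p21) was 1968 and 1930 CPM in muscle against 1057 and 1583 CPM, not called (adjusted p = 0.318, edgeR), and Cdkn1c (p57) was 30.4 and 35.9 CPM against 7.97 and 9.87 CPM, lower. Of 16 exit genes 3 were lower (Cdkn1c, Cdkn2b and Cdkn2c), 1 without either muscle library or transdifferentiated replicate 1.

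**Figure D4:**
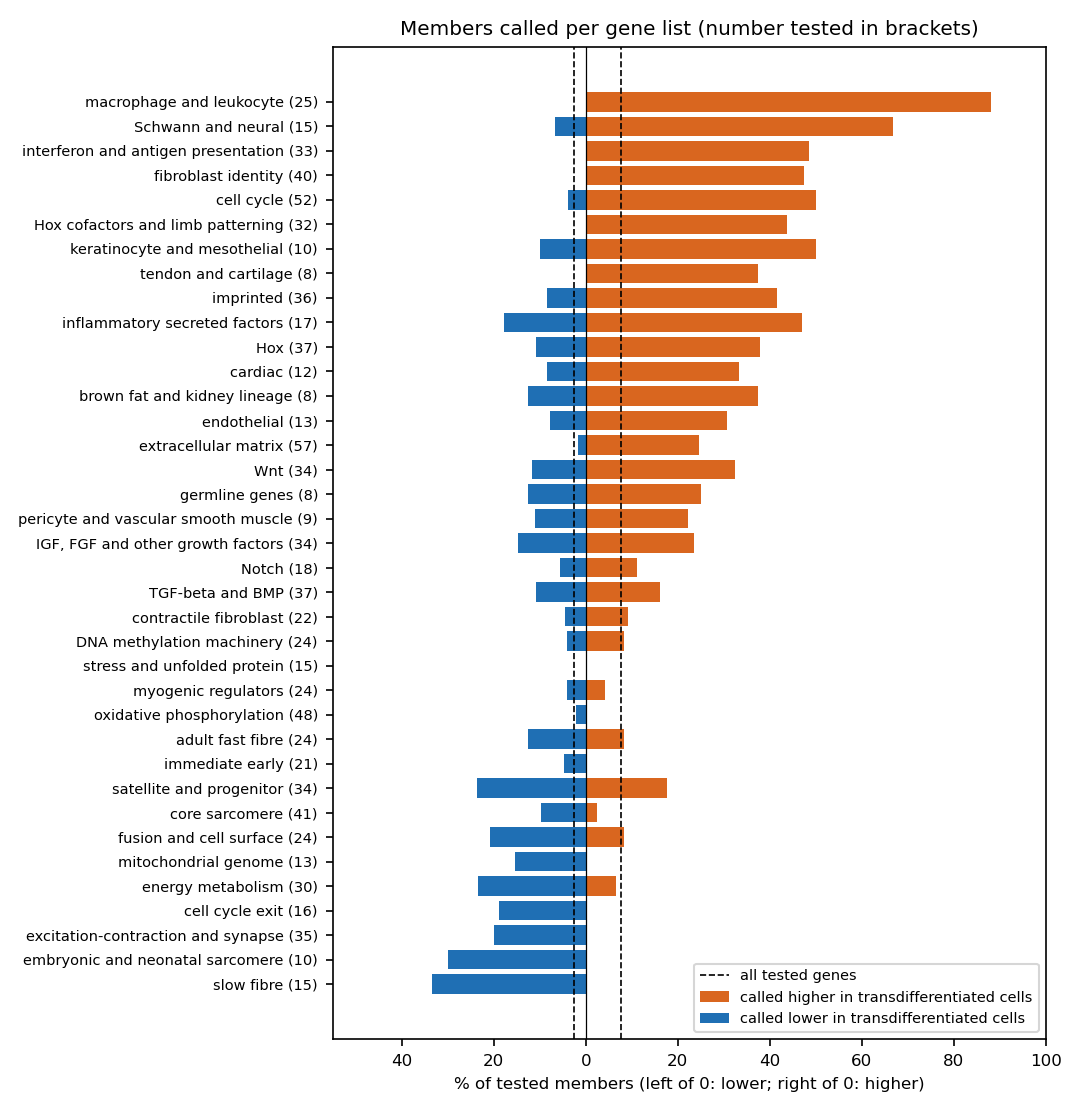
Bars give, for each gene list with at least 8 tested members (number in brackets), the % of tested members called higher (orange, right) or lower (blue, left) in transdifferentiated cells than in muscle; dashed lines mark the 7.58% and 2.46% of all tested genes. The macrophage and leukocyte list extends farthest to the right, followed by Schwann and neural genes, and slow fibre genes extend farthest to the left.

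Positional genes differed from muscle in both directions. Hoxb9 was 0.341 and 0.304 CPM in muscle, 16.3 and 16.7 CPM in transdifferentiated cells and 87.6 and 75.6 CPM in MEF. It was 51.3-fold above muscle (log2 fold change 5.64 ± 0.35, adjusted p = 0.000101, edgeR) and below MEF, with no overlap between any of the groups. Its neighbour Hoxb8 was 0.17 and 0.486 CPM in muscle, 11.9 and 10.5 CPM in transdifferentiated cells and 24.2 and 20 CPM in MEF. Of 9 tested genes of the Hoxb cluster (chromosome 11, 96194316 to 96354012 on mm10), 8 were higher. Their summed level was 2.64 and 2.13 CPM in muscle against 45.4 and 53.8 CPM in transdifferentiated cells and 190.8 and 147 CPM in MEF.

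The other clusters differed from Hoxb. In the Hoxd cluster 4 of 8 tested genes were higher, among them Hoxd13, a gene of the distal limb, with 1 read in muscle and 12.6 and 11.5 CPM in transdifferentiated cells (ratio 479, exact 95% interval 85.6 to 19000, counting error only). In the Hoxc cluster 4 of 9 were lower and 1 higher. Hoxc10 was 39.8 and 40.1 CPM in muscle, 5.28 and 7.35 CPM in transdifferentiated cells and 30.7 and 22 CPM in MEF. Hoxc11 was 20.7 and 18.9 CPM, 1.18 and 1.21 CPM and 14.9 and 8.93 CPM, and Hoxc13 17.2 and 16.4 CPM, 2.81 and 3.10 CPM and 22.8 and 14.4 CPM, in the same order. These 3 genes were below both references, with adjusted p-values against muscle of at most 0.00249 (edgeR). In the Hoxa cluster 1 of 11 was higher (Hoxa13, chosen after its value was seen, at 1.19 and 1.76 CPM in muscle against 6.68 and 5.75 CPM). Over the 37 tested Hox genes 14 were higher and 4 lower, with 8 higher without either muscle library. Muscle held a Hox pattern of its own, with a summed Hoxc level of 123 and 111 CPM. The body site of each sample is not stated, so site of origin and cell type cannot be told apart in this design.

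**Figure D5:**
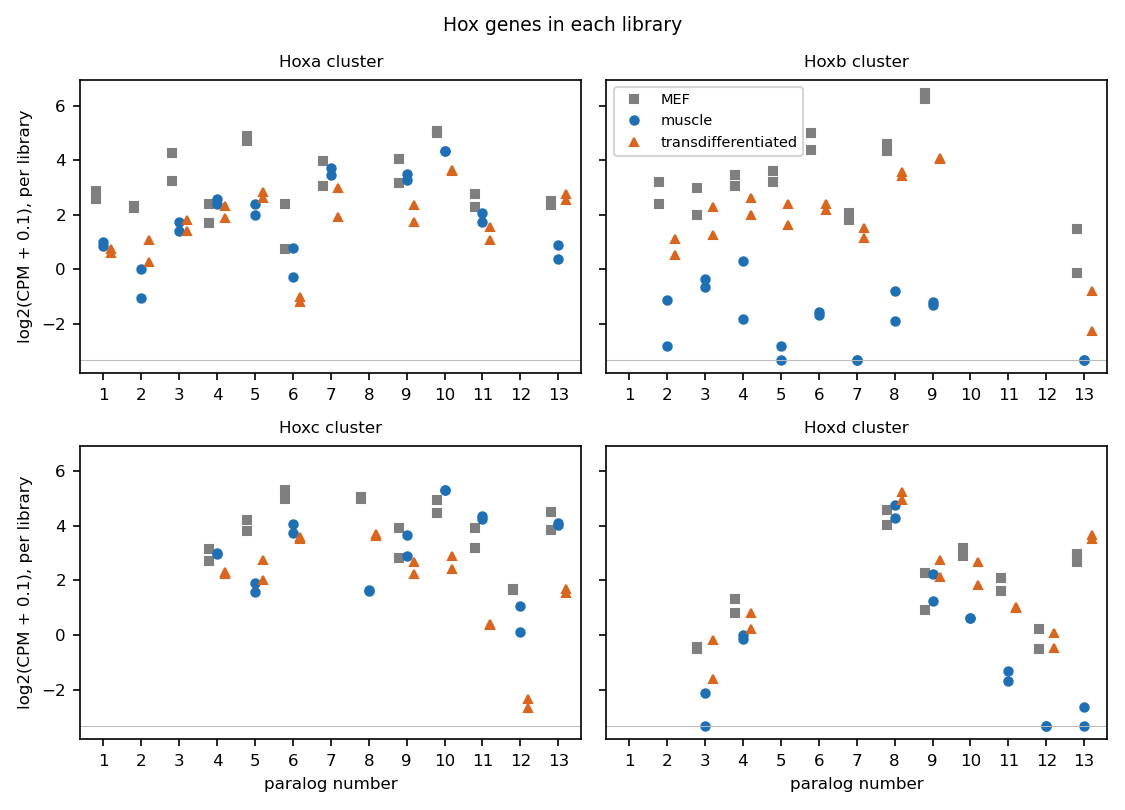
Symbols give each tested Hox gene as log2(CPM + 0.1) in each library, by cluster and paralog number, with MEF as squares, muscle as circles and transdifferentiated cells as triangles; the grey line is 0 CPM. In the Hoxb panel the triangles lie above the circles from paralog 2 to 9, and in the Hoxc panel they lie below both other groups from 10 to 13.

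Of 32 tested limb and patterning factors 14 were higher and none lower, with 18 called in neither direction and a median log2 fold change of 1.45. Tbx5, a factor of the forelimb and heart, had 1 read in muscle and was 1.97 and 1.6 CPM in transdifferentiated cells and 11.7 and 7.38 CPM in MEF (adjusted p = 0.00327, edgeR). Lhx9, a LIM homeobox factor, was 0.213 and 0.365 CPM in muscle, 14.5 and 12.5 CPM in transdifferentiated cells and 6.71 and 5.19 CPM in MEF. Meis2, a Hox cofactor, was 6.18 and 4.62 CPM in muscle against 26.6 and 28.6 CPM. Pitx1, a factor of the hindlimb, was 1.49 and 0.547 CPM against 2.30 and 3.58 CPM, not called (adjusted p = 0.171, edgeR). Without muscle replicate 1 the count was 7 and without muscle replicate 2 it was 6.

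Imprinted genes, which are expressed from 1 parental copy, included some of the most abundant genes termed stayed on. Of 36 tested, 15 were higher and 3 lower. Of the 10 termed stayed on, 4 were called above MEF, so for these the level had risen and not stayed. Dlk1, a Notch-related growth regulator, was 2.90 and 0.304 CPM in muscle, 355 and 651 CPM in transdifferentiated cells and 268 and 143 CPM in MEF. The noncoding RNAs of the same domain on chromosome 12 exceeded both references. Meg3 was 303.3 and 142.5 CPM in muscle, 2906 and 4838 CPM in transdifferentiated cells and 1376 and 747.3 CPM in MEF, and Rian 84.8 and 82.8 CPM, 3314 and 2519 CPM and 455.8 and 708.4 CPM (log2 fold change from muscle 5.12 ± 0.33, adjusted p = 0.000125, edgeR). Slc38a4, an amino acid transporter, was 2.85 and 2.37 CPM in muscle, 157 and 145 CPM in transdifferentiated cells and 101 and 125 CPM in MEF (57.8-fold above muscle, adjusted p = 5.96e-05, edgeR). H19 was 4740 and 4250 CPM in muscle against 6119 and 7206 CPM and Igf2 155 and 121 CPM against 164 and 509 CPM, neither called. The lower members were Cdkn1c, Zim1 and Grb10, of which Zim1 (adjusted p up to 0.341, edgeR) and Grb10 (up to 0.324) lost their calls without either muscle library. Without muscle replicate 1 the higher count was 9, and the lower count was 1 without either muscle library or transdifferentiated replicate 2.

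Of 24 tested genes that write, read or erase DNA methylation, 2 were higher and 1 lower, near the 7.58% and 2.46% of all tested genes. The maintenance methyltransferase Dnmt1 was 46.4 and 42.2 CPM in muscle against 41.7 and 54.9 CPM (log2 fold change 0.13 ± 0.27, adjusted p = 0.884, edgeR), and Dnmt3a 26.9 and 21.5 CPM against 30.1 and 32.3 CPM. Uhrf1, which brings Dnmt1 to replicating DNA, was higher, at 1.11 and 0.608 CPM in muscle, 6.23 and 5.71 CPM in transdifferentiated cells and 24.8 and 19 CPM in MEF. Apobec1, a cytidine deaminase, was the other higher gene, and Zbtb38, a methyl-CpG binding protein, the lower one (adjusted p = 0.0307, edgeR, lost without any one of the 4 libraries compared, up to 0.259). The dioxygenase Tet1 was 6.86 and 7.90 CPM against 18.9 and 14.8 CPM, without overlap and with an adjusted p of 0.0639 (edgeR). Of 4 tested pluripotency genes 1 was higher (Sox2), and of 8 tested germline genes 2 were higher (Tdrd1 and Xlr4a) and 1 lower (Hormad1). Sox2, Tdrd1 and Xlr4a were at most 2.13 CPM in every library and each lost its call without muscle replicate 1 or 2, Tdrd1 also without transdifferentiated replicate 1 (adjusted p up to 0.0635, 0.139 and 0.0618, edgeR).

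The macrophage list had the largest median difference of all lists with tested members. Of 26 macrophage and leukocyte genes 25 were tested, and 22 were higher in transdifferentiated cells than in muscle (20 to 23 with each library left out in turn), none lower, with a median log2 fold change of 8.18. Their summed level was 45.7 and 39.4 CPM in muscle, 1287 and 1078 CPM in transdifferentiated cells and 213.9 and 250.6 CPM in MEF. C1qa, a complement chain made by tissue macrophages, had 2 reads in muscle in all, against 43.6 and 48.8 CPM in transdifferentiated cells and 1.27 and 1.46 CPM in MEF (ratio to muscle 926, exact 95% interval 256 to 7650, counting error only, adjusted p = 5.96e-05, edgeR). Csf1r, the receptor that macrophages need to survive, was 0.682 and 0.669 CPM in muscle, 47.9 and 63.9 CPM in transdifferentiated cells and 11.8 and 10.9 CPM in MEF. Lysozyme (Lyz2) was 0.98 and 0.122 CPM in muscle, 440 and 295 CPM in transdifferentiated cells and 28.8 and 41.7 CPM in MEF. Adgre1 (F4/80) and the signalling adaptor Tyrobp were 0 in both muscle libraries, and transdifferentiated cells were at least 188-fold and 288-fold higher against a floor of 3 counts per muscle library. Of the 681 genes termed stayed on, 19 belong to this list and 18 of them were called above MEF, so for these the level had risen and not stayed. The scavenger carrier Apoe, which many cell types make, was 4.64 and 3.89 CPM in muscle, 496 and 379 CPM in transdifferentiated cells and 31.1 and 28.9 CPM in MEF. The members highest in muscle were Laptm5, Emb and Cd53, at 8.82 to 14.3 CPM, while Tyrobp, Trem2, Adgre1 and Ptprc were at 0 there. Laptm5, Emb, Cd53, Trem2 and Ptprc were chosen after their values were seen. Whether macrophage RNA contributes to the other genes above muscle was not tested.

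Interferon and antigen presentation genes, which macrophages and fibroblasts share, were higher for 16 of 33 tested members (7 without either muscle library), none lower. Psmb8, an immunoproteasome subunit, was 0.256 and 0.122 CPM in muscle, 4.88 and 3.29 CPM in transdifferentiated cells and 3.74 and 4.85 CPM in MEF. The chemokine Cxcl10 was 0.426 and 0.122 CPM in muscle against 7.75 and 8.41 CPM.

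Lists of other cell types held called genes too. Of the mesothelial genes, 3 were higher in transdifferentiated cells than in muscle and high in MEF. Upk3b was 0 in muscle, 17.6 and 24.6 CPM in transdifferentiated cells and 69.4 and 52.5 CPM in MEF, Lrrn4 0.341 and 0 CPM, 26.8 and 28.3 CPM and 43.8 and 42.9 CPM, and Wt1 0.0426 and 0.0608 CPM, 9.15 and 7.69 CPM and 19.1 and 11.7 CPM. Msln, another mesothelial marker, was 429 and 426 CPM in muscle against 130 and 228 CPM, lower, and lost without either muscle library or transdifferentiated replicate 1 (adjusted p up to 0.184, edgeR). The keratinocyte and mesothelial list held 5 higher and 1 lower of 10. Of 15 tested Schwann and neural genes 10 were higher (6 without muscle replicate 2) and 1 lower. Gfap, a glial filament, had 1 read in muscle and was 15.7 and 17.3 CPM in transdifferentiated cells and 0.165 and 0.243 CPM in MEF, above both references. The lower member was Erbb3, a neuregulin receptor of muscle and Schwann cells, with 225 and 228 CPM in muscle against 77.3 and 93.5 CPM and an adjusted p of 0.00745 (edgeR), or up to 0.0658 without either muscle library.

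Endothelial genes were 4 higher (Flt1, Erg, Emcn and Kdr) and 1 lower of 13, and 7 higher without either MEF library. Pecam1 was not called (adjusted p = 0.313, edgeR), at 0.469 and 0 CPM in muscle and 0.955 and 1.06 CPM in transdifferentiated cells. The lower one, Eng, lost its call without muscle replicate 1 (adjusted p = 0.15, edgeR). Fabp4, a lipid carrier of adipocytes and macrophages, was 0 in muscle, 38.6 and 18.3 CPM in transdifferentiated cells and 7.48 and 15.6 CPM in MEF, while 7 of the 11 adipocyte genes were too low to test in these libraries. Tendon and cartilage genes were 3 higher of 8 (Tnmd, Comp and Prg4), of which Comp lost its call without muscle replicate 2 (adjusted p = 0.11, edgeR). Cardiac genes were 4 higher and 1 lower of 12, and pericyte genes 2 higher and 1 lower of 9. The brown fat and kidney lineage list held 3 higher and 1 lower of 8, and 0 higher without muscle replicate 2 and 1 without muscle replicate 1 or transdifferentiated replicate 2. The cardiac higher count was 2 without either muscle library or transdifferentiated replicate 2.

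Some genes stood outside the range of both references. Transdifferentiated cells were called above both muscle and MEF for 456 genes and below both for 106. Above both, and not part of the macrophage list, were Atp1b4, a muscle protein related to sodium pump subunits, and Mgam, an intestinal maltase. Atp1b4 was 4.13 and 1.40 CPM in muscle, 199 and 179 CPM in transdifferentiated cells and 0 and 0.0485 CPM in MEF. Mgam was 1.32 and 1.34 CPM in muscle, 28.0 and 39.6 CPM in transdifferentiated cells and 0.88 and 0.582 CPM in MEF. Below both were Aoc3, an amine oxidase, at 22.6 and 9.24 CPM in muscle, 2.69 and 1.5 CPM in transdifferentiated cells and 51.8 and 35.8 CPM in MEF, and the ribosomal protein gene Rpl29, at 42.4 and 45 CPM, 6.01 and 7.74 CPM and 44.0 and 31.4 CPM. Ribosomal protein genes have many near-identical copies, so the Rpl29 count is uncertain.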

How the data were processed

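RNA was measured in 6 libraries, 2 per group. Per the labels, libraries were made from total RNA with a Lexogen SENSE mRNA kit and sequenced as single-end reads. The deposited table holds whole-number counts per gene symbol for mm10 made by the authors; per the submitters' processing notes, the tools were featureCounts 1.6.2, HISAT2 2.1.0, Trim Galore 0.6.0 and DESeq2 1.26.0. The annotation and strand setting are not stated in the sources used here, so overlapping and antisense genes may share counts.

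Of 55286 symbols, 24642 were 0 throughout, and edgeR 4.0.16 (R 4.3.3, limma 3.58.1) kept 17400 with filterByExpr. The main test was its quasi-likelihood F test with TMM factors on all 6 libraries, with 3 residual degrees of freedom and Benjamini-Hochberg adjustment over all tested genes. The call threshold was an adjusted p of 0.05. CPM is the count scaled to TMM-adjusted library size, SE is that of the log2 fold change, and a count of 3 corresponds to 0.145 to 0.182 CPM, for counting error only. A permutation of 2 against 2 libraries cannot go below an exact p of 0.333, so no such test was run. Gene positions are from GENCODE M21 (mm10, 53183 symbols matched), promoters from RefSeq GRCm38.p6 (11582 of 17400 tested genes matched). On simulated counts for all 17400 genes of this comparison the test called 4 of 66 genes changed by 1 on the log2 scale, 53 of 67 changed by 2 and 67 of 67 changed by 3. Every simulated gene had the median spread of the data and only 200 genes were changed, so the rates may differ in these libraries.

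Members and the 40 gene lists were chosen with earlier results of these data known. Named genes were a fixed panel with the markers and the 10 largest changes each way. These changes were picked among called genes of at least 20 CPM in the higher group whose groups did not overlap. Also named were the 3 smallest p-values in each list with up to 3 of the opposite direction. So were the 15 most abundant stayed-off and 15 stayed-on genes, and 8 above and 8 below both references. Alternatives were DESeq2 1.42.0, other size factors and filters, only 4 libraries, a 1.5-fold threshold, a replicate block and each library left out. "Without either" library means each left out in turn. Some results are not reported here.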

Additional observations from a re-analysis of the deposited data

How the results depend on the processing

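The 1319 genes higher in transdifferentiated cells ranged from 589 to 1616 with 1 library left out, the 428 lower genes from 140 to 605, the 144 stayed-off genes from 40 to 190 and the 681 stayed-on genes from 334 to 772. The lowest values came without muscle replicate 2. The lower count was 670 with no filter on low counts and 250 against a 1.5-fold threshold. DESeq2 gave 1560 higher, 622 lower, 188 stayed-off and 762 stayed-on genes. Other size factors moved the median log2 fold change to between -0.0014 and 0.0354. The labels link same-numbered libraries by their number only. Deviations from the group mean of same-numbered libraries correlated at -0.43 between muscle and transdifferentiated cells. They correlated at 0.48 between MEF and muscle and at -0.71 between MEF and transdifferentiated cells. The libraries thus varied along a partly shared axis that the main fit, by group only, did not model. Its source was not tested. With the replicate block, 1027 genes were higher, 265 lower, 87 stayed off and 582 stayed on. Of 227 named genes 181 were called and 107 of them kept their call under all alternatives. No called gene reversed, and 10 of the 46 not called changed sign under some alternative. Depth limits genes with few reads in muscle to ratios with wide counting intervals.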
